A study of Homo sapiens with 4 samples.

Results

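The genes described here make the ribosome in the nucleolus, and they were read in naïve human embryonic stem cells grown in 2-D and in 3-D culture. They are 10 genes chosen by name for their role in ribosome biogenesis and RNA polymerase I (Pol I) transcription: FBL, NOP56, NOP58, DKC1, NCL, NPM1, POLR1A, POLR1B, UBTF and NOLC1. The deposited tables list 60564 gene identifiers, and all 10 were among the 22555 genes with enough counts to be tested. A wider list of 153 genes of the same pathway, which includes the 10, was read beside them.

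Both groups were Elf1, a naïve human embryonic stem cell (ESC) line, kept in the same ESC expansion medium, and no gene was altered in either. The line was kept on a layer of mouse embryonic feeder cells before it was moved to Matrigel, and by the labels the 2-D grown cells adhered to plastic coated with Matrigel. 3-D grown cells were encapsulated as single cells in self-assembling scaffolds of PEG-8-SH and PEG-8-Acr, polyethylene glycol polymers that crosslink around the cells, and stayed there for 21 days. Each group had 2 independent biological replicates, and since 1 cell line was used the p-values measure the spread between these cultures.

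Ribosome synthesis starts when Pol I transcribes the repeated ribosomal RNA genes into 1 long precursor, from which 18S, 5.8S and 28S ribosomal RNA (rRNA) are cut. Small nucleolar ribonucleoproteins (snoRNPs) of the C/D class guide methylation of the precursor, and those of the H/ACA class guide the change of uridine to pseudouridine, while assembly factors fold and cut it into the small and the large subunit. Pluripotent stem cells are known for prominent nucleoli and high rRNA synthesis. The libraries were depleted of rRNA, so the values below are levels of the mRNAs that encode this machinery and not of its product.

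Counts per library came to 33833778 and 30114220 for 2-D cultures and to 21154409 and 18276147 for 3-D cultures. Levels are given as CPM, the count of a gene scaled to a common library size after normalization by the trimmed mean of M-values, and a change is the log2 ratio of 3-D to 2-D grown cells from edgeR's quasi-likelihood test. A gene is called when its p, adjusted over all tested genes by the Benjamini-Hochberg method, is below 0.05. By this test 1782 genes, or 7.90%, were called, of which 1024 (4.54%) were higher and 758 (3.36%) lower in 3-D. With library size alone as the scale, the calls were 514 higher and 1879 lower. Mitochondrial genes took 5.10 to 5.30% of the counts in 2-D and 8.33 to 8.50% in 3-D. Among cell type markers, DNMT3B of the 8 pluripotency genes and COL1A1, COL3A1 and THY1 of the 6 fibroblast genes tested were called higher in 3-D. The summed fibroblast markers spanned 530 to 538 CPM in 2-D and 547 to 597 CPM in 3-D, DCN and LUM were under the count filter, and no tested endoderm, mesoderm, neural or trophoblast marker was called. The part of these differences in the results below was not tested. In bulk RNA, fewer cells of a type cannot be told apart from less RNA per cell.

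In 3-D grown cells, 4 of the 10 genes rose, NCL, NPM1, NOP58 and UBTF, and FBL fell. The changes were small, between 15.3 and 17.3% of the 2-D mean for the 4 that rose and 10.97% for FBL. NOP56, NOLC1, DKC1, POLR1A and POLR1B did not pass the test. All 10 genes had means of at least 100 CPM, and among the 2214 tested genes at that level 702, or 31.7%, were called, so the 5 of 10 called here stand against that share. The libraries of the groups did not overlap for 8 of the 10 genes, all but DKC1 and POLR1B. They did not overlap for 50.5% of all tested genes and for 65% of the tested wider list without the 10. That share was not computed for genes of at least 100 CPM. The median change of the 10 was 0.09 on the log2 scale, and that of all tested genes was -0.00014.

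**Figure D1:**
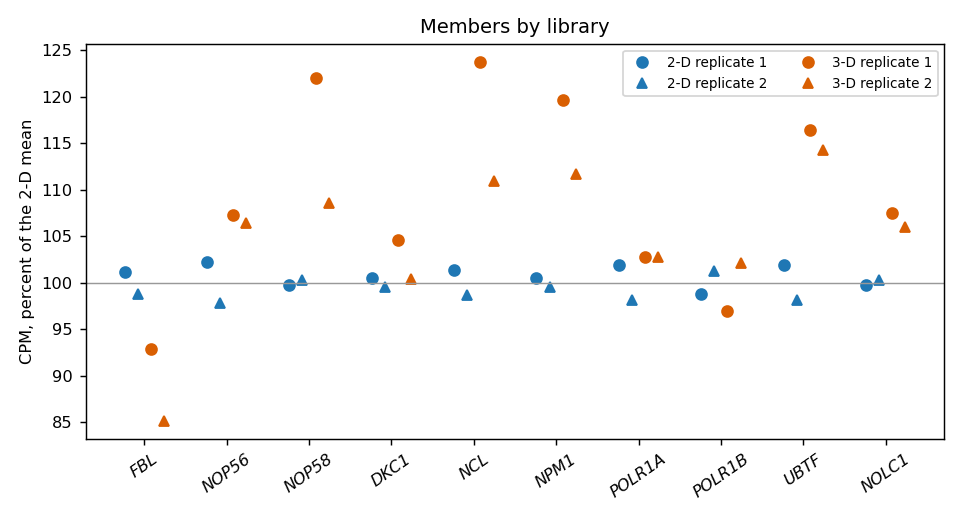
CPM of each of the 10 genes in every library, as a percent of the gene's own 2-D mean (grey line), with blue points for 2-D and orange points for 3-D grown cells, circles for replicate 1 and triangles for replicate 2. The 3-D libraries lie above the 2-D libraries for NCL, NPM1, NOP58, UBTF, NOP56, NOLC1 and, by a small margin, POLR1A, below them for FBL, and among them for DKC1 and POLR1B.

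The nucleolar phosphoproteins include NPM1 and NCL, the most abundant of the 10 genes per length. NCL encodes nucleolin, an RNA-binding protein of the nucleolus that acts in rRNA transcription and processing. It lies on chromosome 2 from 231453531 to 231483641 on the minus strand (hg38, GENCODE release 44), and its canonical transcript has 14 exons. NCL was at 1854 and 1805 CPM in 2-D and at 2263 and 2029.9 CPM in 3-D. Both 3-D libraries were above both 2-D libraries, and the 3-D libraries stood further apart than the 2-D ones. The means were 1829 ± 34.9 and 2147 ± 165 (SD, n = 2 each). NCL rose by 0.23 on the log2 scale (SE 0.04, 95% interval 0.14 to 0.32), with an adjusted p of 0.00583 by edgeR's quasi-likelihood test. Leaving out 3-D replicate 1 gave a change of 0.15 and leaving out 3-D replicate 2 one of 0.31. These fits hold no spread between 3-D libraries, so only the size of the change is given.

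NPM1 encodes nucleophosmin, a histone chaperone of the nucleolus that takes part in the assembly and export of ribosomal particles. It lies on chromosome 5 from 171387116 to 171411810 on the plus strand, with 11 exons in the canonical transcript. NPM1 was at 1875 and 1857 CPM in 2-D and at 2232 and 2085 CPM in 3-D. The 2-D libraries were within 0.98% of each other, and both 3-D libraries were higher. NPM1 rose by 0.21 (SE 0.03, 95% interval 0.13 to 0.29, adjusted p = 0.00280 by the same test, n = 2 each).

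NPM1 has many processed pseudogenes, whose reads can be confused with its own. Of 49 annotated NPM1 pseudogenes 30 had a count, and together they held 3.44 to 3.99% of the counts of NPM1 in the 4 libraries. The NPM1 transcript has 1 near-identical copy elsewhere in hg38, and whether NPM1P27 is that copy was not established. NPM1P27 on chromosome 5, from 93682838 to 93683667, was at 56.2 and 54.3 CPM in 2-D and at 78.9 and 63.1 CPM in 3-D. It moved in the same direction as its parent, by 0.36 (SE 0.07, adjusted p = 0.00986), and was the only one of 12 tested pseudogenes of the members to be called. How the counting treated reads that match several places is not given in the sources used here. The split of reads between NPM1 and its pseudogenes is therefore uncertain. NCLP1, a pseudogene of NCL, changed by 0.01 (adjusted p = 0.982), and NOP56P3, one of NOP56, by -1.33 (adjusted p = 0.123).

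NOLC1 encodes NOPP140, a phosphoprotein that binds both classes of snoRNP and Pol I. It lies on chromosome 10 from 102152176 to 102163871 on the plus strand, with 13 exons. NOLC1 was at 341 and 343 CPM in 2-D and at 367 and 362 CPM in 3-D. The libraries of each group lay close together, and the groups did not overlap. The difference was 0.09 (SE 0.03, 95% interval 0.03 to 0.16) with an adjusted p of 0.0758, which missed the threshold. Without the filter on low counts NOLC1 was called (adjusted p = 0.0392). It was not called by DESeq2 (adjusted p = 0.130) or by edgeR with library size only (change 0.03, adjusted p = 0.619).

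The other 2 genes of this group moved in opposite directions. TCOF1 encodes treacle, a relative of NOPP140 that is needed for Pol I transcription, and rose from 303 to 335 CPM on average (log2 change 0.14, SE 0.03, adjusted p = 0.0199). NPM3, a relative of nucleophosmin, was at 52.5 and 48.0 CPM in 2-D and at 38.4 and 35.3 CPM in 3-D. NPM3 fell by 0.45 on the log2 scale (SE 0.06, adjusted p = 8.28e-04), a larger change than that of any of the 10 genes. In all, 3 of the 5 nucleolar phosphoproteins and chaperones rose and 1 fell, with a median change of 0.14. Among all tested genes, 15.1% of those with at least 10 CPM and 31.7% of those with at least 100 CPM were called. All of the 5 but NPM3 had means of at least 100 CPM. NCL, NPM1 and NOLC1 are among the 10 genes, and without them 1 rose and 1 fell.

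**Figure D2:**
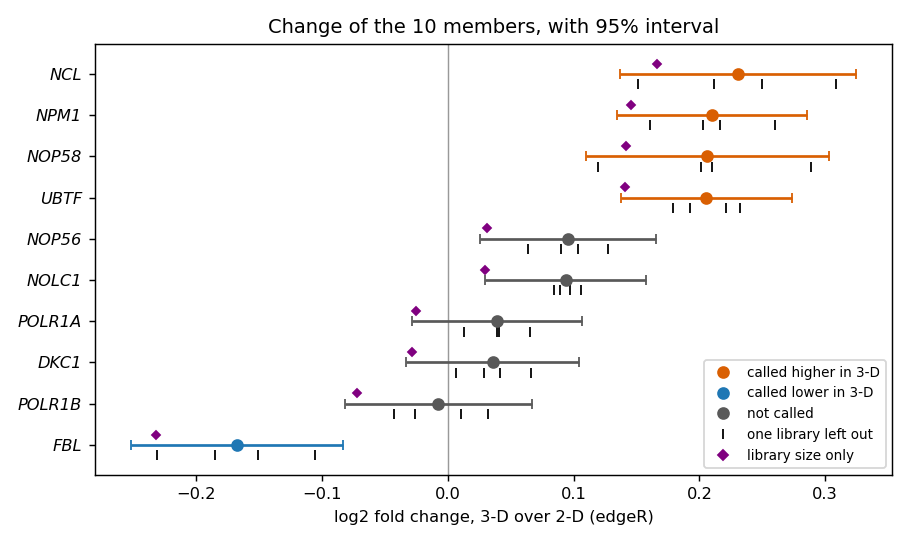
Estimated change in 3-D relative to 2-D of the 10 genes on the log2 scale from edgeR's quasi-likelihood test, with 95% intervals as bars, colours for genes called higher, called lower and not called, ticks for the value with each library left out in turn and purple diamonds for the value with library size only. NCL has the highest estimate at 0.23 and FBL the lowest at -0.17, the intervals of DKC1, POLR1A and POLR1B include 0, and library size only places each gene lower.

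The C/D snoRNP consists of a guide RNA with 4 proteins. Its genes did not move together: NOP58 rose, FBL and SNU13 fell, and NOP56 missed the threshold. Of the 8 core proteins of the C/D and H/ACA classes, 3 were called, or 37.5%. This share was 31.7% among tested genes with at least 100 CPM and 15.1% among those with at least 10 CPM. FBL encodes fibrillarin, the methyltransferase of the C/D particle. It lies on chromosome 19 from 39834458 to 39846379 on the minus strand, with 9 exons. FBL was at 192 and 187 CPM in 2-D and at 176 and 161 CPM in 3-D. Both 3-D libraries were lower, and they differed from each other by 8.70%, against 2.38% between the 2-D libraries. FBL fell by 0.17 on the log2 scale (SE 0.04, 95% interval -0.25 to -0.083, adjusted p = 0.0195, n = 2 each). Without 2-D replicate 1 the adjusted p was 0.0685 and FBL was not called, and without 3-D replicate 2 the fall was 0.11.

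NOP58 and NOP56 encode the paired scaffold proteins of the particle. NOP58 lies on chromosome 2 from 202265736 to 202303661 on the plus strand, with 15 exons. It was at 169.7 and 171 CPM in 2-D and at 208 and 185 CPM in 3-D. Both 3-D libraries were higher, with replicate 1 well above replicate 2. NOP58 rose by 0.21 (SE 0.04, 95% interval 0.11 to 0.30, adjusted p = 0.0133), and by 0.12 without 3-D replicate 1. With library size alone as the scale its adjusted p was 0.0534 and it was not called. A long noncoding RNA gene, ENSG00000286223, lies inside NOP58 on the opposite strand, from 202302122 to 202303614, and was at 46.8 and 47.5 CPM in 2-D and at 69.4 and 50.6 CPM in 3-D (log2 change 0.35, SE 0.10, adjusted p = 0.0490). Whether the counting used strand is not given in the sources used here, so reads of the overlapping pair may not be told apart.

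NOP56 lies on chromosome 20 from 2652593 to 2658393 on the plus strand, with 12 exons. It was at 284 and 271 CPM in 2-D and at 298 and 295 CPM in 3-D. The 3-D libraries were higher than both 2-D libraries, by a margin close to the gap between the 2-D libraries. The difference was 0.10 (SE 0.03, 95% interval 0.03 to 0.17) with an adjusted p of 0.0976. NOP56 was called without the filter on low counts (adjusted p = 0.0467). It was not called by DESeq2 (adjusted p = 0.189) or by edgeR with library size only (change 0.03, adjusted p = 0.621). SNU13, which encodes the protein that first binds the guide RNA, is not one of the 10 genes, and fell from 105 and 102 CPM to 90.8 and 92.9 CPM (log2 change -0.17, SE 0.03, adjusted p = 0.00872). DESeq2 did not call SNU13, and its change ran from -0.19 to -0.15 with 1 library left out.

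Ratios of counts within a library do not depend on the scale between libraries, and 10 ratios were computed. They were chosen after the values were seen and compare 2 libraries with 2, where an exact permutation test cannot go below 0.333, so they are given as values. NOP58 counts per FBL count were 0.886 and 0.912 in 2-D and 1.18 and 1.15 in 3-D. NOP58 was thus below FBL in counts in both 2-D libraries and above it in both 3-D libraries, a ratio 1.29-fold higher in 3-D. NOP56 per FBL went from 1.48 and 1.45 to 1.69 and 1.83. SNU13 per FBL was 0.546 and 0.543 in 2-D and 0.517 and 0.577 in 3-D, so the groups overlapped for the pair of genes that both fell. NPM1 per NPM3 had the widest difference of the 10, with 35.7 and 38.7 in 2-D and 58.1 and 59.0 in 3-D.

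**Figure D3:**
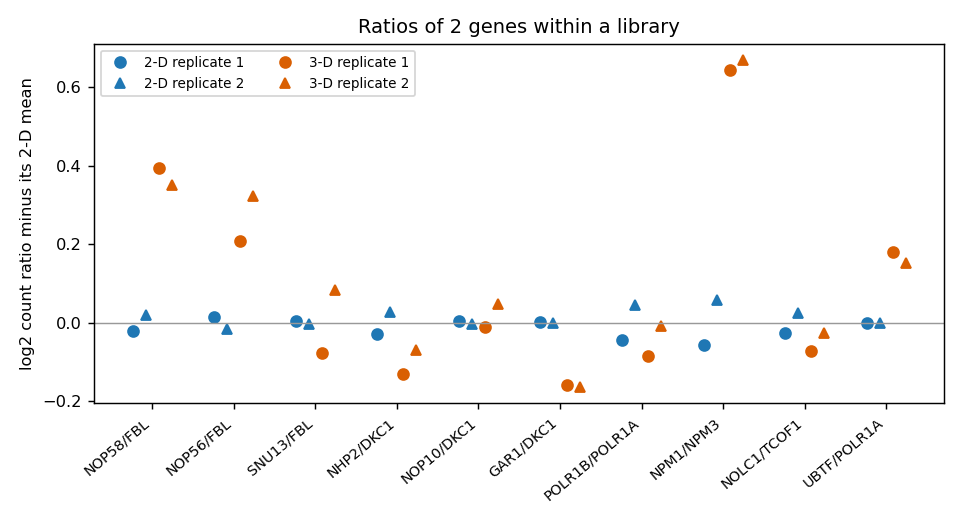
Ratio of the counts of 2 genes within each library on the log2 scale, minus the mean of that ratio over the 2-D libraries, for the 10 ratios, with blue points for 2-D, orange for 3-D, circles for replicate 1 and triangles for replicate 2. NPM1 per NPM3 lies furthest from 0 in 3-D, followed by NOP58 per FBL and NOP56 per FBL, while the groups overlap for SNU13 per FBL, NOP10 per DKC1 and POLR1B per POLR1A.

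DKC1 encodes dyskerin, the pseudouridine synthase of the H/ACA snoRNP, which is also a component of telomerase. It lies on chromosome X from 154762742 to 154777689 on the plus strand, with 15 exons. DKC1 was at 231 and 229 CPM in 2-D and at 240.4 and 231 CPM in 3-D. The groups overlapped, and the difference of 0.04 (SE 0.03, 95% interval -0.03 to 0.10) had an adjusted p of 0.588. None of the 3 other core proteins of the particle was called, with GAR1 at -0.12 (adjusted p = 0.238), NHP2 at -0.06 (adjusted p = 0.400) and NOP10 at 0.05 (adjusted p = 0.448). Each 2-D library had 0.165 GAR1 counts per DKC1 count, and the 3-D libraries had 0.148 and 0.147.

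Factors that build snoRNPs are used by both classes, and 8 of the 9 listed were tested. RUVBL1, which encodes an ATPase of the R2TP chaperone complex that assembles snoRNPs, rose from 135 to 156 CPM on average (log2 change 0.21, SE 0.03, adjusted p = 7.79e-04). It was the only one called, or 12.5%, beside 15.1% of the tested genes with at least 10 CPM. The median of the 8 was 0.05. ZNHIT3 was under the count filter with 2, 0, 0 and 0 counts, and has 1 near-identical copy on an alternate contig of hg38.

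Several members carry snoRNA genes in their introns, which are released from the same primary transcript. On the strand of the host lie 14 annotated snoRNAs, with 5 in NOP56, 4 in NOP58, 3 in NCL and 2 in DKC1. Only 6 had at least 10 counts over the 4 libraries, 3 in NOP58 and 3 in NCL, and none was called. In NOP58, SNORD70 changed by 0.54 (adjusted p = 0.389), SNORD11 by -0.20 (adjusted p = 0.786) and SNORD11B by -0.41 (adjusted p = 0.685). In NCL, SNORD82 changed by -0.03 (adjusted p = 0.984), SNORA75 by 0.18 (adjusted p = 0.720) and SNORD20 by -0.24 (adjusted p = 0.572). At these counts, changes of the size seen in the hosts were not detectable.

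The catalytic core of Pol I is formed by the products of POLR1A and POLR1B, its largest subunits. POLR1A lies on chromosome 2 from 86020216 to 86106155 on the minus strand, with 34 exons. It was at 215 and 208 CPM in 2-D and at 217.3 and 217.2 CPM in 3-D. The groups did not overlap, but the gap between them was smaller than the gap between the 2-D libraries, and the difference of 0.04 (SE 0.03, 95% interval -0.03 to 0.11) had an adjusted p of 0.540. POLR1B lies on chromosome 2 from 112541915 to 112579818 on the plus strand, with 15 exons. It was at 110.2 and 113 CPM in 2-D and at 108 and 114 CPM in 3-D. The 3-D libraries lay on either side of the 2-D libraries, with a difference of -0.0076 (SE 0.03, 95% interval -0.08 to 0.07, adjusted p = 0.934).

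Of all 13 Pol I subunits tested, 1 was called, or 7.69%, beside 7.90% of all tested genes and 15.1% of those with at least 10 CPM. POLR1D, a small subunit that Pol I shares with Pol III, fell from 97.3 to 87.3 CPM on average (log2 change -0.16, SE 0.03, adjusted p = 0.0141). The call was lost when either 2-D library was left out. POLR1C, the partner of POLR1D, was at -0.12 (adjusted p = 0.142). The subunits particular to Pol I were POLR1E at 0.03 (adjusted p = 0.816), POLR1F at 0.04 (adjusted p = 0.650) and POLR1G at 0.15 (adjusted p = 0.0995). The 5 subunits common to all 3 nuclear polymerases all had estimates below 0 and none was called: POLR2K -0.17 (adjusted p = 0.134), POLR2F -0.11 (adjusted p = 0.432), POLR2H -0.11 (adjusted p = 0.258), POLR2L -0.10 (adjusted p = 0.376) and POLR2E -0.05 (adjusted p = 0.519). POLR1H was at 0.90 and 0.45 CPM in 2-D and at 0.34 and 4.46 CPM in 3-D. It has 7 near-identical copies on alternate contigs, so its change of 1.74 (SE 0.72, adjusted p = 0.178) is uncertain. The median over the 13 subunits was -0.05.

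UBTF encodes the upstream binding factor, which binds the rRNA gene promoter and body and keeps the repeats open for Pol I. It lies on chromosome 17 from 44205033 to 44221626 on the minus strand, with 21 exons. UBTF was at 128 and 124 CPM in 2-D and at 147 and 144 CPM in 3-D. The libraries of each group lay close together, and the groups were well apart. UBTF rose by 0.21 (SE 0.03, 95% interval 0.14 to 0.27, adjusted p = 0.00170), which was the lowest adjusted p of the 10 genes. ENSG00000260793 and ATXN7L3-AS1 overlap UBTF on the opposite strand and changed by 0.04 (adjusted p = 0.956) and 0.07 (adjusted p = 0.794).

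UBTF was the only one of the 8 Pol I initiation and termination factors to be called, or 12.5%, beside the same 15.1% of genes with at least 10 CPM. Of the selectivity factor that recruits Pol I, TAF1A was at 0.0065 (adjusted p = 0.978), TAF1B at -0.04 (adjusted p = 0.811), TAF1C at 0.01 (adjusted p = 0.941), TAF1D at -0.07 (adjusted p = 0.210) and TBP at 0.06 (adjusted p = 0.746). TTF1, the termination factor, was at 0.15 (adjusted p = 0.132). RRN3, which makes Pol I competent to initiate, was at 8.30 and 4.90 CPM in 2-D and at 4.38 and 7.08 CPM in 3-D. Its libraries scattered widely within each group, the change of -0.23 (SE 0.24) had an adjusted p of 0.666, and it has 1 near-identical copy on an alternate contig. UBTF counts per POLR1A count were 0.597 and 0.596 in 2-D and 0.676 and 0.663 in 3-D, a ratio 1.12-fold higher in 3-D.

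Levels can be compared between genes only per length, here as CPM per kilobase of the canonical transcript. In 2-D grown cells the order was NPM1 with a mean of 1414, NCL 466, FBL 168, NOP56 145, DKC1 93.1, NOLC1 91.8, NOP58 85.3, UBTF 26.3, POLR1A 16.9 and POLR1B 14.8. No neighbours in this order overlapped between the 2-D libraries. DKC1 and NOLC1 came closest, with the lower DKC1 library at 92.7 and the higher NOLC1 library at 92.0. In 3-D the means were 1635 for NPM1, 547 for NCL, 155 for NOP56, 149.7 for FBL, 98.4 for NOP58, 97.96 for NOLC1, 95.4 for DKC1, 30.3 for UBTF, 17.4 for POLR1A and 14.7 for POLR1B. FBL was at 156 and 143 in the 3-D libraries and NOP56 at 156 and 154, so these neighbours overlapped there, as NOP58, NOLC1 and DKC1 did. The order of the middle and last places also rests on the length used, and so does the distance between NPM1 and NCL. With all annotated exons merged, NPM1 stayed above NCL in 2-D, but at 225 against 205. With all annotated exons merged, NOLC1 took place 4 and DKC1 place 7 in 2-D, POLR1B stood above POLR1A, and FBL stayed above NOP56 in 3-D with 78.8 against 59.9.

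**Figure D4:**
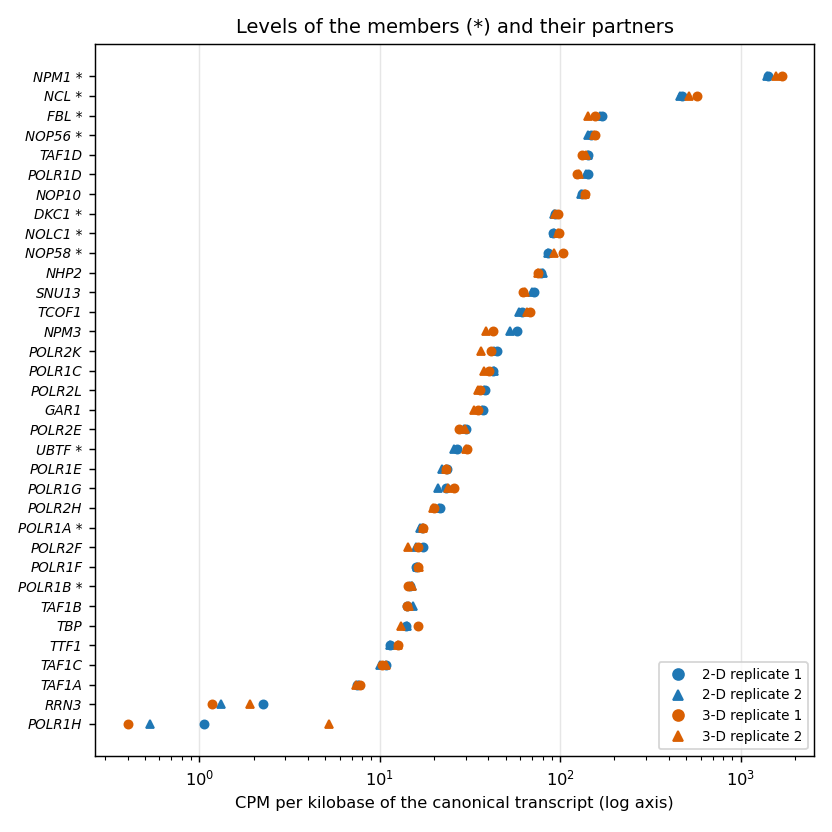
Level of the 10 genes (asterisks), the other core snoRNP proteins, TCOF1, NPM3 and the other Pol I subunits and factors per kilobase of canonical transcript in every library, as CPM per kilobase on a log axis in the order of the 2-D means. NPM1 at 1414 and NCL at 466 stand above all others, most Pol I genes lie lowest, and the libraries of RRN3 and POLR1H scatter most.

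Beyond the 10 genes, the wider pathway showed changes in both directions. Of its 153 genes 150 were tested, and 17 were called higher and 9 lower, which is 17.3%. Without the 10 genes the share was 15.0%, 21 of 140, with 13 higher and 8 lower. The pathway is highly expressed, with a median of 70.9 CPM against 7.18 over all tested genes. Among the 10211 tested genes with at least 10 CPM, 15.1% were called, a share close to that of the wider list. With library size alone as the scale the list had 5 genes called higher and 29 lower, and its median went from 0.04 to -0.026, so the direction of the list turned with the scaling. Of the 21 called genes outside the 10, only NPM3, RUVBL1 and UTP14A were called under all 12 alternatives tried. DESeq2 called 6 of the 21, and edgeR called 8 with 2-D replicate 1 left out and 5 with 2-D replicate 2 left out.

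Of 49 tested factors of the small subunit processome and the pre-40S particle, 3 rose and 2 fell. UTP14A, a processome protein, rose by 0.20 (adjusted p = 0.00310). NAT10, the acetyltransferase of 18S rRNA, rose by 0.14 (adjusted p = 0.0112), and ESF1 rose by 0.14 (adjusted p = 0.0300). EMG1, which methylates a pseudouridine of 18S rRNA, fell by 0.18 on the log2 scale (adjusted p = 0.0104), and PNO1, an RNA-binding factor of the pre-40S particle, fell by 0.15 (adjusted p = 0.0416). The 5 called were 10.2% of the group, beside 15.1% of the tested genes with at least 10 CPM, and the median was 0.04.

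Of 59 large subunit assembly factors, 8 rose and 3 fell, which is 18.6%, beside 15.1% of the tested genes with at least 10 CPM. Those with the greatest rise were LAS1L (0.17, adjusted p = 0.0118), which belongs to the nuclease complex that cuts the spacer between 5.8S and 28S rRNA, and CCDC86 (0.17, adjusted p = 0.0260). The helicases DDX27 (0.15, adjusted p = 0.0183) and DDX54 (0.14, adjusted p = 0.0202), PES1 of the PeBoW complex (0.14, adjusted p = 0.0398) and the methyltransferase FTSJ3 (0.13, adjusted p = 0.0210) also rose. The change of PES1 was 0.091 without 3-D replicate 1, where it was not called. NIP7, a pre-60S factor, fell by 0.22 on the log2 scale (adjusted p = 0.00692), RSL24D1, a ribosomal-like protein of the pre-60S particle, fell by 0.16 (adjusted p = 0.0124), and TEX10, a partner of LAS1L, fell by 0.11 (adjusted p = 0.0394). Changes in this group ran from -0.27 to 0.34, with a median of 0.05.

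**Figure D5:**
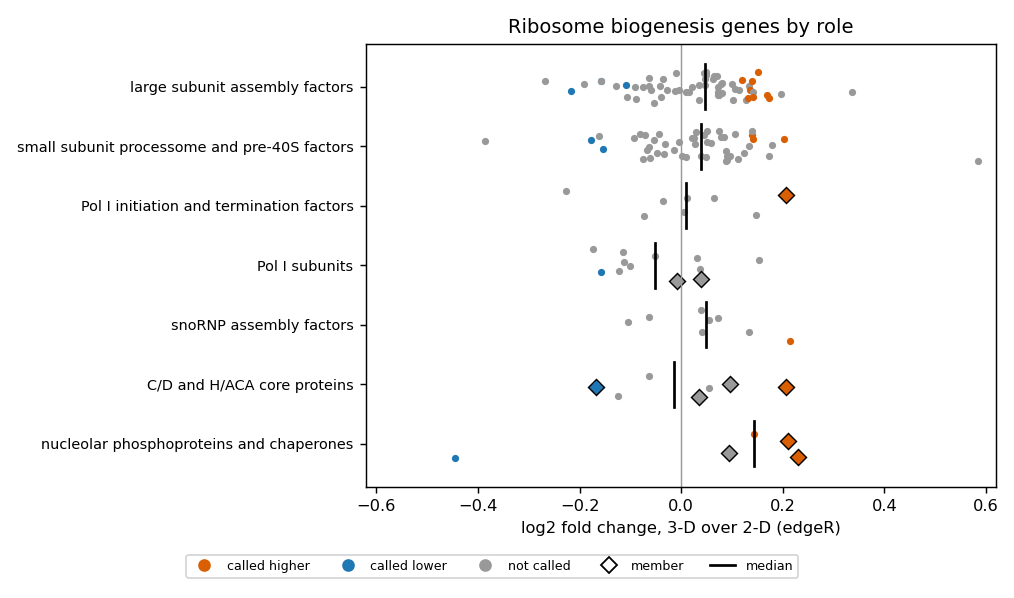
Change in 3-D relative to 2-D (log2 scale) of the tested genes of the wider pathway by role, with the 10 genes as diamonds, called genes in colour and the median of each role as a black line. The axis ends at 0.6 and 1 gene, POLR1H at 1.74, lies beyond it; called genes are found on both sides of 0 among the core snoRNP proteins, the nucleolar phosphoproteins and both kinds of assembly factor.

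Promoter windows were compared between called and uncalled members. RefSeq windows on GRCh38.p14, from 250 bases before to 50 after the annotated start, were matched for 8 of the 10 genes, and NOP58 and NOLC1 had no entry. They were searched on both strands for CACGTG, the E-box that MYC and related factors bind, and for TCGCGA and GCGCATGC, which are found in promoters of housekeeping genes. CACGTG and TCGCGA read the same on both strands. TCGCGA lay in the windows of NCL, NPM1 and POLR1B, and GCGCATGC in that of DKC1. UBTF, which rose, had none of these motifs in its window, and FBL, which fell, had only CACGTG. The 3 stretches with TCGCGA are shown because 2 of the 3 genes with these 6 letters rose and the third did not. The stretch of DKC1, which was not called, shows GCGCATGC. Motifs are in capitals, and each stretch is written from 5′ to 3′ on the strand of the gene.
NCL promoter, chr2:231464581-231464610, minus strand: acggttagaggcTCGCGAttggctcatggg
NPM1 promoter, chr5:171387791-171387820, plus strand: cttgggaagcgcTCGCGAgatcttcagggt
POLR1B promoter, chr2:112541958-112541987, plus strand: caggggtgagccTCGCGAgttaggagttgg
DKC1 promoter, chrX:154762708-154762737, plus strand: tgaggctcgaaGCGCATGCgcggtctcgcc

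Distances are from the RefSeq start of each window. For NCL, NPM1, POLR1B and DKC1 this start lies inside the GENCODE span given above, since that span reaches to the outermost annotated transcript. The motif TCGCGA began 114 bases before this start in NCL, 46 before it in NPM1 and 66 before it in POLR1B. A further window of POLR1B, from 112542215 to 112542514, has a TCGCGA at its first base, 250 before another annotated start. The changes of these genes were 0.23, 0.21 and -0.0076. TCGCGA was in the windows of 3.76% of 27305 genes and of 14.5% of the 131 genes of the wider list with a window. GCGCATGC was in 3.68% of all genes and 8.40% of the wider list, and its reverse complement GCATGCGC overlaps it in DKC1. CACGTG was found in FBL alone among the 8, beginning 6 bases after the start base, and was in 8.77% of all genes and 31.3% of the wider list, or 41 genes. The wider list is more highly expressed than most genes, and no motif share among genes of similar level was computed. A match describes the letters in the window and does not show that a factor binds there.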

How the data were processed

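The deposited RNA-seq tables of Elf1 cells hold 2 libraries from each culture condition. Per the labels and methods, total RNA with an RNA integrity number of 10 was depleted of rRNA (KAPA RNA HyperPrep with RiboErase) and sequenced with paired ends, and the authors trimmed reads with Trim Galore 0.6.3, aligned them to hg38 by HISAT2 2.1.0 and counted them per GENCODE gene by featureCounts 1.6.4. The strand setting and the treatment of reads with several matches are not given in the sources used here. The deposited counts are whole reads per gene without normalization, 1 set per library. The deposited normalized signal was made by the authors by dividing each count by its library's DESeq2 size factor, and served only for limma-trend. The authors' table of comparisons also holds their log2 fold changes, standard errors, statistics and p-values as deposited, which were not used.

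Counts were fitted with edgeR 4.0.16 in R 4.3.3: TMM normalization, its filter on low counts (22555 of 60564 genes), the quasi-likelihood test in its default legacy mode with condition alone, and Benjamini-Hochberg adjustment over all tested genes. The standard error of a change is its size over the square root of F. The 12 alternatives included DESeq2 1.42.0, its size factors in edgeR, library size only, TMM computed without mitochondrial genes, and a replicate block. Filters were also changed, to none beyond a single count and to a minimum of 10 counts in all libraries. The rest were limma-trend (limma 3.58.1) on log2 of the deposited signal plus 1, and leaving out each library. Counts of the libraries of a group differed by more than sampling noise (chi-square over degrees of freedom 2.27 for 2-D and 3.92 for 3-D), and all were kept as replicates. The correlation of the replicate 1 deviations of 2-D and 3-D was -0.0079 over the tested genes. With 2 pairs and sampling noise in each gene, this cannot tell whether the replicate numbers pair the samples.

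The 10 genes, the wider list, written from general knowledge, the marker lists and the tests were chosen with earlier results of these data known. Named are the 10 genes, the other core snoRNP proteins, all Pol I subunits and Pol I factors, the called genes of the other groups (at most 6 in each direction by size of change), pseudogenes of members, and snoRNAs inside members with at least 10 counts. The overlapping antisense genes and NPM1P27 were named after their values were seen. Of the identifiers 60295 were matched to GENCODE release 44, whose positions and lengths are given. Copies were found with minimap2 2.31-r1302 as alignments elsewhere over at least 80% of the canonical transcript with at least 98% identity. Promoter windows came from a RefSeq table of GRCh38.p14.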

Additional observations from a re-analysis of the deposited data

How the results depend on the processing

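Depth was lower in 3-D and each group had 2 libraries, so small changes could be missed. NCL, NPM1 and UBTF were called under all 12 alternatives, with changes of 0.15 to 0.31, 0.15 to 0.26 and 0.14 to 0.23. With library size only, NOP58 was not called (adjusted p = 0.0534), DKC1 turned to -0.029 and POLR1A to -0.025, and the median of the wider list turned to -0.026, while the median of all genes moved to -0.065, so the scaling itself shifted every gene. DESeq2 called 794 genes against 1782, and 11 of the wider list against 26, with the same 5 of the 10 genes. Without a filter 2486 genes were called, and NOP56 and NOLC1 joined (adjusted p = 0.0467 and 0.0392). With library size only in edgeR their adjusted p-values were 0.621 and 0.619. Leaving out 1 library, with the lone sample assumed to vary like the others, gave 974 to 2643 called genes, 4 to 7 called of the 10, and 12 to 44 of the wider list with a median of 0.013 to 0.042. FBL was then lost without 2-D replicate 1 (adjusted p = 0.0685), NOP56 and NOLC1 were called without either 3-D library, and POLR1B ranged from -0.043 to 0.032, above 0 without 2-D replicate 2 (0.010) or 3-D replicate 1. The cause of these changes was not tested. The fit with a replicate block called 2167 genes and 5 of the 10, FBL, NOP58, NCL, NPM1 and UBTF as without it. Whether the replicate numbers pair the samples is not known. Of 120 recomputed changes of the 10 genes, 108 kept direction and call, 6 gained a call, 2 lost it and 4 turned.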

Other observations

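The files also list genes for 5.8S rRNA, a part of the product of Pol I. RNA5-8SN3 was at 283 and 277 CPM in 2-D and at 119 and 82.4 CPM in 3-D, a change of -1.47 on the log2 scale (SE 0.11, adjusted p = 6.19e-06 by edgeR's quasi-likelihood test). RNA5-8SN1 was at 151 and 136 CPM in 2-D and at 96.8 and 87.7 CPM in 3-D, a change of -0.63 (SE 0.05, adjusted p = 1.62e-05). RNA5-8SN2 had 26 and 6 counts in 2-D and 22 and 7 in 3-D and was not called (adjusted p = 0.610). All genes annotated as rRNA, a class without the mitochondrial rRNA genes, took 0.0425 to 0.0444% of the counts in 2-D and 0.0168 to 0.0214% in 3-D. Nearly all of those counts were from RNA5-8SN3 and RNA5-8SN1. These are near-identical repeats in libraries from which rRNA was removed, and the part of that removal in the difference was not tested.

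Some assembly factors had few or no counts. AATF, which acts in the small subunit processome, was at 0 in all libraries, and WDR46, a processome protein, had 0, 0, 6 and 1 counts. Both have near-identical copies on alternate contigs of hg38, 1 for AATF and 4 for WDR46. In all, 9 genes of the wider list have such a copy elsewhere in the assembly, and NPM1 was the only one of them to be called.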
